A study of Mus musculus with 9 samples.

Results

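The 10 genes described here belong to the amino acid stress response that runs through the transcription factor ATF4: Atf4 itself, its relatives and partners Atf5 and Ddit3, the feedback regulator Trib3, and 6 target genes, Asns, Sesn2, Chac1, Eif4ebp1, Psat1 and Phgdh. They were chosen by name, and each Ensembl identifier of the deposited liver table was matched to its symbol. The 10 genes had 11 of the table's 54007 rows, because Ddit3 had a second row that is listed at 0 in all 9 libraries. Of the 10 genes, 7 reached the level needed for testing, among 10988 tested genes in all. Asns, Psat1 and Phgdh did not reach it.

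Liver RNA came from C57BL/6 mice at postnatal day 98. The 45 mice had entered at 6 weeks of age, 15 per group. The control group is labelled only as control, the second group received a high-fat diet (HFD), and the third received the high-fat diet together with the gut bacterium Papillibacter cinnamivorans by gavage (HFD+Pc). Each group had 3 libraries: control replicates 1, 2 and 4, HFD replicates 1, 2 and 3, and HFD+Pc replicates 1, 3 and 4. The control diet, any vehicle gavage of the other groups and the number of mice behind a library are not given in the labels. The p-values therefore measure only the spread between these libraries.

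In the integrated stress response, kinases that sense amino acid shortage, misfolded protein in the endoplasmic reticulum, heme deficiency or viral RNA phosphorylate the translation factor eIF2alpha. General translation then slows, while the Atf4 messenger, which carries short upstream reading frames, is translated more. ATF4 protein binds C/EBP-ATF response elements and raises genes for amino acid synthesis, uptake and tRNA charging. Atf4 messenger is thus only 1 layer of this control, and the protein and eIF2alpha phosphorylation were not measured here. In liver the response is known for its part in protein restriction, in fatty liver and in the release of the hormone FGF21.

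Levels are given as deposited in FPKM, fragments per length of transcript and per library total, so that levels of different genes can be compared. Differences between groups are on the log2(FPKM + 1) scale with their standard error (SE), a scale that understates the change of low genes. A gene passed the test when its limma p-value was under 0.05 after Benjamini-Hochberg adjustment over the 10988 tested genes. The reads behind the FPKM values could be recovered as whole numbers for 25355 of 26278 genes above 0 (96.5%, within 0.02 of a whole number), with 15224275 to 16976764 reads per library over those genes. Between 10323 and 10587 genes reached 1 FPKM per library, and 3 reads in a gene of 1 kb were worth 0.160 to 0.179 FPKM. This floor covers counting error only. Hepatocyte markers summed to 39596 to 58751 FPKM per library, and in the list of pancreatic acinar markers 3 of 6 genes were listed at 0 throughout. Among 13 immediate early genes, which respond to tissue handling, the summed level was 147 FPKM in control replicate 1, 107 in control replicate 2 and 62.3 in control replicate 4, against 47.4 to 62.1 in the other 6 libraries. HFD+Pc replicate 1 was the lowest library of its group in 5 of the 7 tested ATF4 genes (71.4%), and in 41.3% of all tested genes. In bulk tissue, fewer cells of a type and less RNA per cell cannot be told apart.

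The response element was looked up first, because it is the sequence through which ATF4 acts on its targets. The core TGATGNAA, in which N is any base, was searched on both strands in RefSeq promoter windows of GRCm38.p6, which run from 250 bases before to 50 after a transcription start. That build differs from the GRCm39 used by the submitters for alignment. The core occurred in 1304 of 32851 windows (3.97%). Of the 9 ATF4 genes in the promoter table, which had 11 windows, 3 held a match: Asns, Chac1 and Trib3. The matches are shown in capitals within 30 bases, read 5′ to 3′ on the strand of the gene, and the start site counts as base 1.
Asns, chr6:7693214-7693243, minus strand, bases -23 to -16: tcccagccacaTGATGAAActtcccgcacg
Chac1, chr2:119351038-119351067, plus strand, bases -193 to -186: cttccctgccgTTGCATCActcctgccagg
Trib3, chr2:152344028-152344057, minus strand, bases 15 to 22: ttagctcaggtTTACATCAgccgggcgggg

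The Asns match read in the forward direction of the gene and lay just before the start. The matches of Chac1 and Trib3 read in the reverse direction, and that of Trib3 lay after the start, in transcribed sequence. Windows of Atf4, Atf5, Ddit3, Sesn2, Psat1 and Phgdh held no TGATGNAA, which says only that these letters are not in these windows. The 250 bases before the start are printed for Asns, the gene whose HFD libraries stood highest, and for Atf4, the gene whose HFD+Pc libraries stood lowest. Capitals mark the match, and the Atf4 sequence has none.
Asns, chr6:7693210-7693459, minus strand: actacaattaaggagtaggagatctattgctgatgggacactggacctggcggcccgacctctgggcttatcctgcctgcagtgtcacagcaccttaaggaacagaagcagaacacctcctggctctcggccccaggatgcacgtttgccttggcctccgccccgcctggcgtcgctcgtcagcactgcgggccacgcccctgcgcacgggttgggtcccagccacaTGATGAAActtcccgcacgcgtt
Atf4, chr15:80254934-80255183, plus strand: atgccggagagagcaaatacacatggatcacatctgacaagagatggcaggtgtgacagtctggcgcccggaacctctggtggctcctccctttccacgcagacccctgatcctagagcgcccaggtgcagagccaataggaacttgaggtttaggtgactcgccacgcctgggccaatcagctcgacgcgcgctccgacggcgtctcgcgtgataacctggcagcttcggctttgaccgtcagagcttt

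The same core was found in the promoters of several other genes around ATF4. It was present in 5 of the 8 genes for aminoacyl-tRNA synthetases and tRNA export that the table held (among them Gars, Iars, Tars and Yars), and in 5 of 12 regulators of the integrated stress response (Atf3, Herpud1, Jdp2, Nupr1 and Vldlr). Fgf21, 2 of 7 amino acid transporters (Slc1a4 and Slc7a11) and 3 of 11 enzymes of serine, one-carbon and amino acid metabolism (Got1, Pck2 and Pycr1) also held it. None of 10 genes for eIF2alpha kinases and factors, 11 genes of mTORC1 sensing and 15 targets of ATF6 and XBP1 did. Sites of 3 genes that return in the results are shown in the same way, to be set beside the sites of the ATF4 genes.
Fgf21, chr7:45615611-45615640, minus strand, bases -139 to -132: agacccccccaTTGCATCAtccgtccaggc
Got1, chr19:43524689-43524718, minus strand, bases -102 to -95: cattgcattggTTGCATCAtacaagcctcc
Atf3, chr1:191183425-191183454, minus strand, bases -110 to -103: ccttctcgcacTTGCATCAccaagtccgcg

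The endoplasmic reticulum stress element, which is CCAAT, 9 bases of any kind and CCACG on either strand, served for comparison, because the ATF6 and XBP1 branches act through it. It occurred in 39 of all windows (0.119%), in 7 of 15 genes of the ATF6 and XBP1 list, and in 0 of the 9 ATF4 genes in the table. No list had windows with both motifs. The match of Hspa5, the major chaperone of the endoplasmic reticulum, shows the form of the element, with the whole match in capitals.
Hspa5, chr2:34772014-34772032, plus strand, bases -65 to -47: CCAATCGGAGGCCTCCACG

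**Figure D1:**
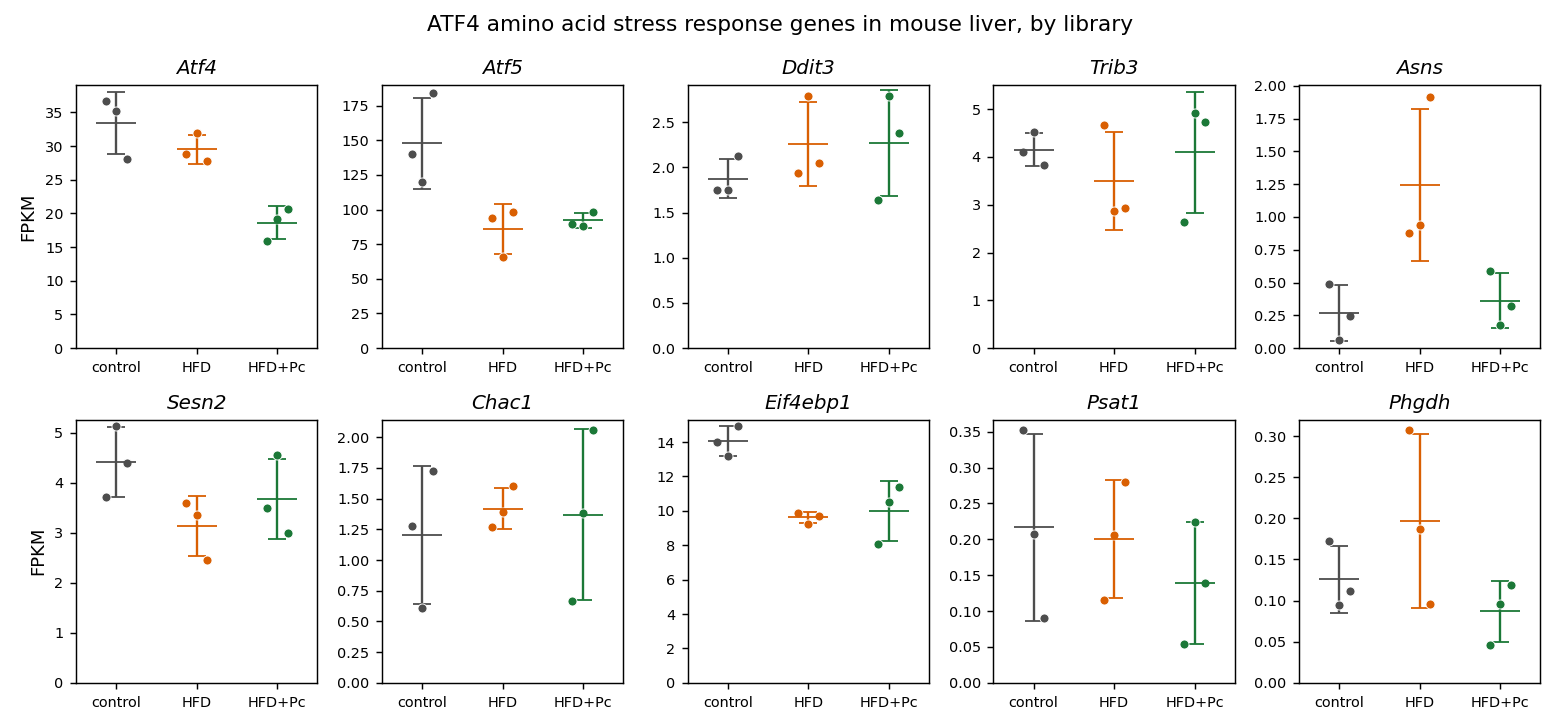
Level of each of the 10 ATF4 genes in FPKM (vertical axes, each from 0) in the 9 liver libraries, by group. Points are libraries, horizontal lines are group means and bars are ± SD (n = 3). Atf4 in the HFD+Pc libraries (15.9 to 20.7 FPKM) lay below all others, Atf5 and Eif4ebp1 were below control in both diet groups, and Asns was highest in the 3 HFD libraries.

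The 10 genes spanned a wide range of levels. Atf5 was the most abundant, with a mean of 109 FPKM over the 9 libraries and rank 386 among the tested genes. Atf4 followed with 27.2 FPKM (rank 1369) and Eif4ebp1 with 11.2 FPKM (rank 2824). Trib3 and Sesn2, at 3.91 and 3.75 FPKM, differed by less than their spread between libraries. Ddit3 (2.14 FPKM) and Chac1 (1.33 FPKM) had low levels, with 49 to 82 and 17 to 57 reads per library. Asns averaged 0.623 FPKM on 3 to 88 reads, Psat1 0.185 FPKM on 4 to 28 reads and Phgdh 0.137 FPKM on 2 to 14 reads. The 3 genes below the level for testing are enzymes that make asparagine and serine.

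In HFD against control liver, 2 of the 7 tested ATF4 genes fell, Atf5 and Eif4ebp1, and 0 rose. Among all tested genes 5.35% fell and 4.61% rose. In 3 of the 7 (Atf5, Eif4ebp1 and Sesn2) every HFD library lay below every control library, which held for 16.4% of all tested genes. The median difference of the 7 was -0.22, against -0.001 over all tested genes. Unadjusted limma p-values were under 0.05 for 3 of the 7, and limma-voom on the recovered reads called 2. Over all genes the counts were 3052 of 10988 in limma and 1290 of 10587 in limma-voom.

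In HFD+Pc against HFD liver, 0 of the 7 passed in limma, 1 (Atf4) had an unadjusted p under 0.05, and limma-voom called 1, again Atf4. Over all genes 1718 of 10988 had an unadjusted limma p under 0.05, and limma-voom called 115 of 10587. Of all tested genes 0.446% fell and 0.182% rose in this comparison. Atf4 was the only 1 of the 7 with every HFD+Pc library below every HFD library, a separation that 9.56% of all tested genes showed. The median difference of the 7 was 0.04, against 0.01 over all tested genes.

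In HFD+Pc against control liver, 3 of the 7 fell, Atf4, Atf5 and Eif4ebp1, and 0 rose. Of all tested genes 11.9% fell and 11.1% rose. The same 3 genes had every HFD+Pc library below every control library, as did 20.8% of all tested genes. The median of the 7 was -0.22, against 0.01 over all tested genes, and 3 of the 7 had an unadjusted limma p under 0.05. So did 4194 of all 10988 tested genes. The 3 comparisons share groups in pairs, so their values are not independent of each other.

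**Figure D2:**
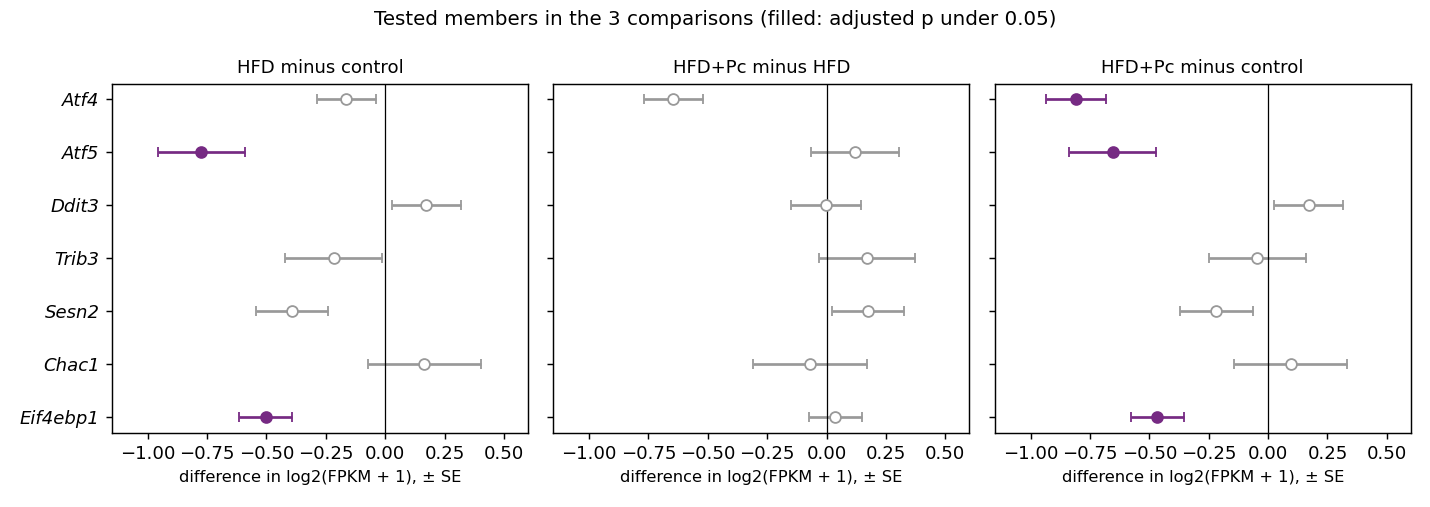
Difference of each of the 7 tested ATF4 genes in log2(FPKM + 1) (horizontal axis) in the 3 comparisons, with bars of ± 1 SE from the limma fit over 9 libraries. Filled points passed at an adjusted p under 0.05: Atf5 and Eif4ebp1 for HFD minus control, none for HFD+Pc minus HFD, and Atf4, Atf5 and Eif4ebp1 for HFD+Pc minus control.

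Atf4 encodes the basic leucine zipper factor at the centre of the response. Its level was 36.7, 35.2 and 28.1 FPKM in control replicates 1, 2 and 4. The HFD replicates 1, 2 and 3 had 28.8, 32.0 and 27.8 FPKM, and the HFD+Pc replicates 1, 3 and 4 had 15.9, 19.2 and 20.7 FPKM. The control and HFD libraries overlapped, and all 3 HFD+Pc libraries lay below the other 6. These levels rested on 655 to 1620 reads per library.

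Mean Atf4 was 33.4 ± 4.61 FPKM (SD, n = 3) in control, 29.5 ± 2.17 in HFD and 18.6 ± 2.45 in HFD+Pc liver. With the bacterium Atf4 fell against control by 0.81 ± 0.13 on the log2(FPKM + 1) scale (limma adjusted p = 0.0036), and the control mean was 1.79-fold that of HFD+Pc. This call held in all 9 fits without 1 library (limma adjusted p 0.0045 to 0.0153). The 2 control libraries with the highest Atf4 were also the 2 with the highest immediate early genes. Without both of them the difference from control was -0.58 and did not pass (limma adjusted p = 0.0906), in a fit with 1 control library. The part of handling in this result was not tested.

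Against HFD alone, Atf4 with the bacterium differed by -0.65 ± 0.13, which did not pass (limma adjusted p = 0.0554). The HFD mean was 1.59-fold that of HFD+Pc. The difference passed with the values rescaled to TPM, with median-ratio scaling and in limma-voom on recovered reads (limma adjusted p = 0.0356, 0.0498 and 0.0244). It passed in none of the 9 fits without 1 library (limma adjusted p 0.0627 to 0.178). The summed immediate early genes were 47.4 to 53.7 FPKM in HFD and 55.7 to 62.1 FPKM in HFD+Pc. The part of handling in this difference was not tested either. HFD against control gave -0.16 ± 0.13 for Atf4 (limma adjusted p = 0.426). Atf4 has 2358 exonic bases, and tested genes with 2000 bases or more and under 3000 had a median difference of -0.01 between HFD+Pc and HFD. Of these 1625 genes 241 fell and 171 rose in HFD+Pc against control. The part of length was not tested.

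Atf5 is a relative of Atf4 whose messenger also carries upstream reading frames, and it is abundant in liver. It stood at 140.0, 119.7 and 184 FPKM in control replicates 1, 2 and 4. HFD replicates 1, 2 and 3 had 94.2, 65.6 and 98.4 FPKM, and HFD+Pc replicates 1, 3 and 4 had 89.9, 88.3 and 98.5 FPKM. All 6 libraries from mice on the high-fat diet lay below the 3 control libraries, and the 2 diet groups overlapped.

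Mean Atf5 was 148 ± 32.9 FPKM in control, 86.1 ± 17.8 in HFD and 92.2 ± 5.51 in HFD+Pc liver (SD, n = 3). The control mean was 1.72-fold that of HFD. Atf5 fell by 0.77 ± 0.18 in HFD against control (limma adjusted p = 0.0323) and by 0.65 ± 0.18 in HFD+Pc against control (limma adjusted p = 0.0312). HFD+Pc against HFD gave 0.12 ± 0.18 (limma adjusted p = 0.801). The first call was lost without control replicates 1 or 4, HFD replicates 1 or 2 or HFD+Pc replicate 3 (limma adjusted p = 0.0775, 0.0776, 0.0591, 0.0692 and 0.0504). The call against control with the bacterium was lost without control replicates 1 or 4 or HFD+Pc replicates 1, 3 or 4 (limma adjusted p = 0.0668, 0.0886, 0.0734, 0.0953 and 0.0570). Exons of Atf5 overlap those of Nup62 and Il4i1 on the other strand by 82 bases, and the files do not state whether counting used strand. Nup62 averaged 5.13, 4.67 and 4.13 FPKM in the 3 groups and Il4i1 at most 0.0389 FPKM.

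Eif4ebp1 encodes 4E-BP1, which holds back cap-dependent translation by binding eIF4E and is released by mTORC1. Control replicates 1, 2 and 4 had 14.0, 13.2 and 15.0 FPKM, HFD replicates 1, 2 and 3 had 9.90, 9.26 and 9.70 FPKM, and HFD+Pc replicates 1, 3 and 4 had 8.05, 10.5 and 11.4 FPKM. All libraries on the diet lay below all control libraries, and the HFD values lay within the range of the HFD+Pc values. The spread was narrow in HFD, where the SD was 3.42% of the mean, and wider in HFD+Pc (17.4%).

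Eif4ebp1 fell by 0.50 ± 0.11 in HFD against control (limma adjusted p = 0.0268) and by 0.47 ± 0.11 in HFD+Pc against control (limma adjusted p = 0.0179). The control mean, 14.1 ± 0.872 FPKM, was 1.46-fold the HFD mean of 9.62 ± 0.329 FPKM (SD, n = 3). HFD+Pc against HFD gave 0.04 ± 0.11 (limma adjusted p = 0.906). The HFD call was lost without any 1 control library (limma adjusted p = 0.0750, 0.0613 and 0.0737 without replicates 1, 2 and 4). It was also lost without any 1 HFD library (limma adjusted p = 0.0624, 0.0676 and 0.0617 without replicates 1, 2 and 3). With the bacterium the call was lost without control replicate 4 (limma adjusted p = 0.0568). Without control replicates 1 and 2 together, neither Atf5 nor Eif4ebp1 passed in HFD against control (limma adjusted p = 0.0838 and 0.178) or in HFD+Pc against control (0.0593 and 0.117). Stretches of Eif4ebp1 of at least 100 bases match 36 other genes at 90% identity or more. The longest, of 357 bases, is in Gm14143, listed at 0 in all libraries, and the next, of 346 bases on the other strand, in Slc10a2, with 3.50, 4.16 and 7.49 FPKM in control, HFD and HFD+Pc. The 36 genes together had reads equal to 3572% of those of Eif4ebp1. The largest share, 2263%, was that of Hal, which matches over 118 bases on the same strand. Hal averaged 115.8, 87.8 and 98.95 FPKM in control, HFD and HFD+Pc, lower in both diet groups, as Eif4ebp1 was. Its libraries overlapped, at 90.01 to 137.4 FPKM in control, 79.7 to 103.8 in HFD and 84.3 to 112.4 in HFD+Pc. Stx5a, with 164 bases on the same strand, went the other way, with 5.72, 5.99 and 7.08 FPKM. Whether reads were shared was not tested. Summed hepatocyte markers were lower in HFD than in control, as Atf5 and Eif4ebp1 were. The sums were 53547 to 56088 FPKM in control and 39596 to 41358 in HFD. In that comparison 0 of the 10 markers passed in limma, with 6 at an unadjusted p under 0.05 and 1 called by limma-voom. Among all 10988 tested genes 3052 had an unadjusted limma p under 0.05 in HFD against control. In HFD+Pc the sum was 44485 to 58751 FPKM. In HFD+Pc against control 2 of the 10 markers fell and 0 rose in limma, where 11.9% of all tested genes fell and 11.1% rose. For the 10 markers limma-voom called 3, and 2678 of 10587 over all genes. There 7 of the 10 differences were negative, with a median of -0.22. As mean deviation from the mean of the 9 libraries in log2(FPKM + 1), the 10 markers stood at 0.15 to 0.24 in control. The HFD libraries stood at -0.28 to -0.11 and the HFD+Pc libraries at -0.14 to 0.03. Summed endothelial markers were 97.2 to 107 FPKM in control, 69.3 to 88.2 in HFD and 76.0 to 80.9 in HFD+Pc, so that every library of both diet groups lay below every control library, as for Atf5 and Eif4ebp1. All 8 endothelial markers had negative differences in both comparisons with control, as did 50.1% and 48.7% of all tested genes for HFD and HFD+Pc. Of the 8 markers 2 fell in HFD and 1 in HFD+Pc, where 5.35% and 11.9% of all tested genes fell. Summed stellate cell markers were lower in every diet library, with 115 to 127 FPKM in control, 90.8 to 105 in HFD and 88.7 to 106 in HFD+Pc. By mean deviation these 8 markers stood at 0.03 to 0.08 in control, -0.08 to -0.001 in HFD and -0.11 to 0.09 in HFD+Pc. There HFD+Pc replicate 4 was the highest of the 9 libraries. Against control 5 of the 8 differences were negative and 3 positive in HFD, and 6 were negative and 2 positive in HFD+Pc. Of these 8 markers 1 fell in HFD, and 2 fell and 1 rose in HFD+Pc against control, beside the shares of all tested genes given above. The part of hepatocyte, endothelial and stellate cell RNA in these results was not tested.

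Sesn2, a leucine sensor that restrains mTORC1, was 3.72, 5.13 and 4.41 FPKM in control replicates 1, 2 and 4. HFD replicates had 3.59, 3.35 and 2.46 FPKM and HFD+Pc replicates 3.49, 4.55 and 3.00 FPKM. The 3 HFD libraries lay just below the lowest control library, and the HFD+Pc libraries overlapped both groups. The difference between HFD and control, -0.39 ± 0.15, did not pass (limma adjusted p = 0.132), nor did the others (0.17 against HFD and -0.22 against control, with adjusted p = 0.633 and 0.326 in limma).

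Trib3 encodes a pseudokinase that ATF4 induces and that restrains ATF4 and AKT. Its level was 4.10, 4.51 and 3.82 FPKM in control, 4.67, 2.88 and 2.94 in HFD and 2.64, 4.91 and 4.74 in HFD+Pc, in the order of the replicate numbers. All groups overlapped, and in HFD+Pc the low value was that of replicate 1. The differences were -0.22 ± 0.20, 0.17 ± 0.20 and -0.05 ± 0.20 in the order HFD minus control, HFD+Pc minus HFD and HFD+Pc minus control, and the smallest limma adjusted p was 0.527.

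Ddit3 encodes CHOP, a partner of ATF4 tied to cell death in prolonged stress. It was 1.75, 1.75 and 2.13 FPKM in control, 1.94, 2.79 and 2.05 in HFD, and 1.64, 2.79 and 2.38 in HFD+Pc. The groups overlapped, and the differences of 0.17, -0.003 and 0.17 (each with an SE of 0.15) did not pass (limma adjusted p = 0.474, 0.997 and 0.422). Its exons overlap those of Mars, a tRNA synthetase gene at 14.1 to 17.8 FPKM, by 68 bases on the other strand, so some of its few reads could be shared. Chac1, a glutathione-degrading enzyme and a sensitive ATF4 target, was 1.27, 0.611 and 1.72 FPKM in control, 1.27, 1.39 and 1.6 in HFD and 0.664, 1.38 and 2.06 in HFD+Pc. Its libraries differed more within control and within HFD+Pc (SD 46.5% and 51.0% of the mean) than the groups differed from each other. Differences were 0.17, -0.07 and 0.09 with an SE of 0.24 (limma adjusted p = 0.692, 0.916 and 0.803).

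Asns, the enzyme that makes asparagine and a classic ATF4 target, had 0.489, 0.0646 and 0.243 FPKM in control replicates 1, 2 and 4, on 25, 3 and 12 reads. HFD replicates 1, 2 and 3 had 0.877, 0.937 and 1.91 FPKM on 44, 44 and 88 reads. HFD+Pc replicates 1, 3 and 4 had 0.585, 0.175 and 0.325 FPKM on 28, 8 and 15 reads. Every HFD library lay above every control and every HFD+Pc library, and the last 2 groups overlapped. Asns was the only 1 of the 10 with every HFD library above every control library. The share of all genes with such an upward separation is not given here, so how common it is cannot be judged.

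The mean of Asns was 0.265 ± 0.213 FPKM in control, 1.24 ± 0.582 in HFD and 0.362 ± 0.208 in HFD+Pc liver (SD, n = 3), so the HFD mean was 4.68-fold that of control and 3.44-fold that of HFD+Pc. Asns stayed under the level for testing. With the filter lowered to 0.1 FPKM in at least 3 libraries, its difference between HFD and control was 0.81 and did not pass (limma adjusted p = 0.0550), and without any filter it did not pass either (limma adjusted p = 0.111). HFD+Pc minus HFD gave -0.70 (limma adjusted p = 0.208 and 0.369 with the 2 settings). No near-identical copy of Asns was found in the annotated transcripts.

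Psat1 and Phgdh, which make serine from a glycolytic intermediate, had few reads, 4 to 28 and 2 to 14 per library. Psat1 ranged from 0.0910 to 0.352 FPKM in control, 0.115 to 0.280 in HFD and 0.0538 to 0.224 in HFD+Pc. Phgdh ranged from 0.0947 to 0.172, 0.0957 to 0.307 and 0.0460 to 0.119 FPKM in the same order. All groups overlapped for both genes. With the filter lowered to 0.1 FPKM in at least 3 libraries, neither passed in HFD against control (-0.02 for Psat1 and 0.08 for Phgdh, limma adjusted p = 0.944 and 0.563), nor without a filter (0.992 and 0.611). Neither passed in the other 2 comparisons with either setting. A difference was not detectable at this depth. Phgdh has 24 annotated near-identical stretches elsewhere, with reads equal to 50% of its own, so its few reads are uncertain. Psat1 has 1 such copy, Gm12611, with reads equal to 12.1% of its own.

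The enzymes and regulators around ATF4 were read next, from 7 lists with 64 tested genes that are not among the 10. In HFD against control 2 of the 64 rose and 1 fell, where 4.61% of all tested genes rose and 5.35% fell. In HFD+Pc against HFD 0 passed in limma, with 7 at an unadjusted p under 0.05 and 0 called by limma-voom. Over all genes 1718 of 10988 had an unadjusted limma p under 0.05 there, and limma-voom called 115 of 10587. In HFD+Pc against control 8 rose and 6 fell, where 11.1% of all tested genes rose and 11.9% fell. The medians of the 64 were 0.06, 0.05 and 0.14, against -0.001, 0.01 and 0.01 over all tested genes. The lists and all values below are on the log2(FPKM + 1) scale.

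**Figure D3:**
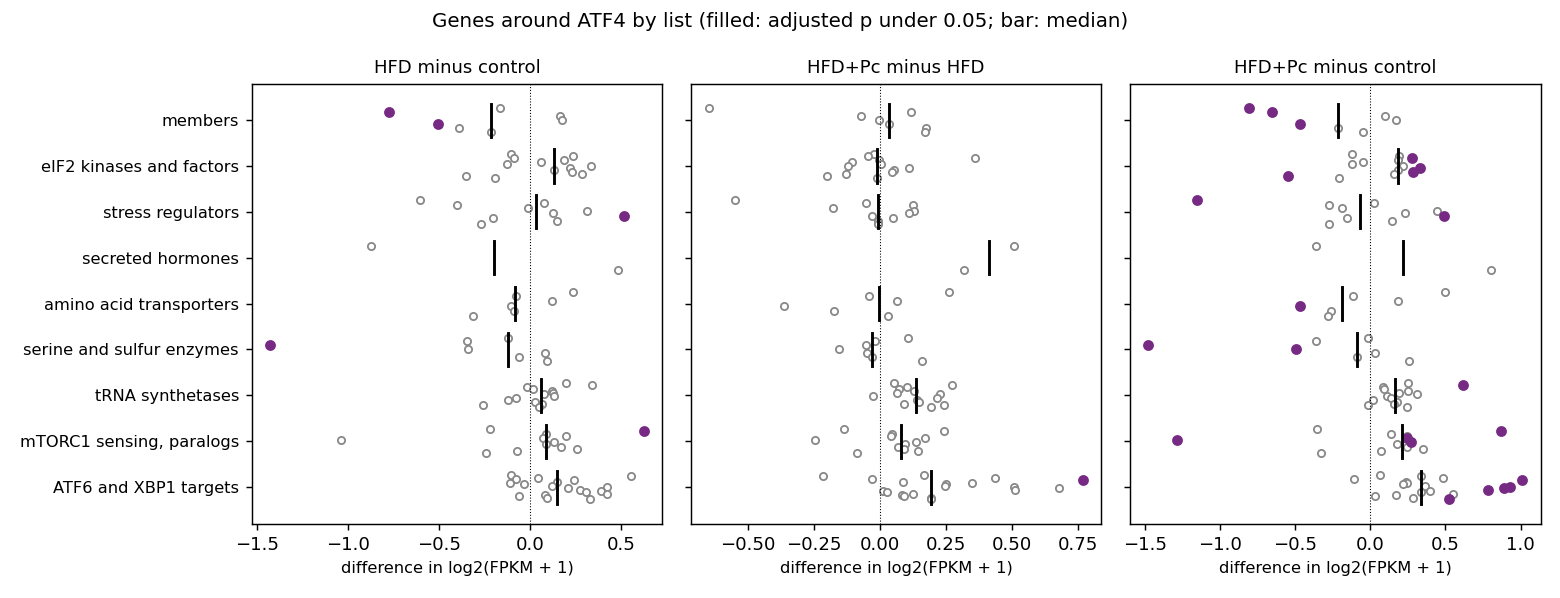
Difference in log2(FPKM + 1) (horizontal axes) of every tested gene in the ATF4 list and in 8 lists around it, 1 panel per comparison. Each point is a gene, filled points passed at a limma adjusted p under 0.05, and vertical bars are list medians. Among targets of ATF6 and XBP1, 5 of 19 rose in HFD+Pc against control (median 0.34), whereas the ATF4 list had 3 of 7 lower (median -0.22).

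The sensors and brakes upstream of ATF4 comprised 13 genes for eIF2alpha kinases, phosphatase subunits and translation factors. None passed in limma in HFD against control (4 at an unadjusted p under 0.05, 1 called by limma-voom) or in HFD+Pc against HFD (1 and 0). Among all 10988 tested genes 3052 and 1718 had an unadjusted limma p under 0.05 in these comparisons. In HFD+Pc against control 3 rose and 1 fell, where 11.1% of all tested genes rose and 11.9% fell. Eif2ak3, which encodes the endoplasmic reticulum kinase PERK, was 2.47 ± 0.105 FPKM in control, 2.27 ± 0.120 in HFD and 3.21 ± 0.362 in HFD+Pc liver (SD, n = 3). It rose by 0.28 ± 0.08 against control (limma adjusted p = 0.0393) and did not pass against HFD (0.36 ± 0.08, limma adjusted p = 0.0860). Eif2s1, which encodes eIF2alpha, rose by 0.28 and Eif2b4, a subunit of its exchange factor, by 0.33 (limma adjusted p = 0.0242 and 0.0417).

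Ppp1r15a encodes GADD34, the inducible phosphatase subunit that reverses eIF2alpha phosphorylation and is an ATF4 target. It fell by 0.55 ± 0.16 in HFD+Pc against control (limma adjusted p = 0.0330), from 3.32 ± 1.01 to 1.90 ± 0.199 FPKM. It stood at 3.695 and 4.09 FPKM in control replicates 1 and 2 and at 2.18 in replicate 4. Replicates 1 and 2 were also those with high immediate early genes, and the part of handling was not tested. The 4 calls passed in 2 (Eif2ak3 and Eif2b4), 4 (Ppp1r15a) and 5 (Eif2s1) of the 9 fits without 1 library. Eif2ak3 and Eif2b4 lost them without any 1 control or HFD+Pc library and without HFD replicate 1 or 2 respectively. Ppp1r15a lost its call without control replicates 1 or 2 or any HFD+Pc library, and Eif2s1 without control replicates 1 or 2 or HFD+Pc replicates 1 or 4 (highest limma adjusted p for the 4 genes 0.138). Eif2ak4, which encodes the amino acid sensor GCN2, was 1.47, 1.80 and 1.80 FPKM in the 3 groups, and Eif2ak1, the heme-regulated kinase, 9.85, 9.10 and 8.98 FPKM, and neither passed in any comparison.

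Among 10 tested transcription factors and regulators of the response, 1 rose in HFD against control, and 1 rose and 1 fell in HFD+Pc against control. Cebpb, a dimer partner of ATF4, had a mean of 67.3 ± 10.7 FPKM in control, 44.0 ± 8.45 in HFD and 29.9 ± 7.01 in HFD+Pc liver (SD, n = 3). It fell by 1.15 ± 0.20 with the bacterium against control (limma adjusted p = 0.0057), a call that held in all 9 fits without 1 library. The other differences of Cebpb, -0.61 in HFD against control and -0.55 in HFD+Pc against HFD, did not pass (limma adjusted p = 0.0867 and 0.237). Cebpb is itself an early response gene, and its control values were 70.8, 75.8 and 55.2 FPKM in replicates 1, 2 and 4.

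Nfe2l2, which encodes NRF2, rose by 0.52 ± 0.13 in HFD and by 0.49 ± 0.13 in HFD+Pc against control (limma adjusted p = 0.0374 and 0.0248). Its HFD call held in 2 and its HFD+Pc call in 5 of the 9 fits without 1 library. The first was lost without control replicates 1 or 2, any HFD library or HFD+Pc replicates 3 or 4, and the second without control replicate 2 or any HFD+Pc library (highest limma adjusted p = 0.0950 and 0.0676). The stress-induced mTORC1 inhibitor Ddit4 (4.91, 3.43 and 4.01 FPKM in control, HFD and HFD+Pc) did not pass. Atf3 (0.890, 0.543 and 0.949 FPKM), Nupr1 (0.420, 0.298 and 0.147 FPKM) and Vldlr (0.174, 0.560 and 0.492 FPKM), 3 stress-responsive genes with the core in their promoters, stayed under the level for testing.

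Of the secreted stress hormones, Fgf21 was 4.16, 3.03 and 4.42 FPKM in control replicates 1, 2 and 4, 1.43, 0.796 and 3.19 in HFD replicates 1, 2 and 3, and 2.77, 2.76 and 2.74 in HFD+Pc replicates 1, 3 and 4. HFD replicate 3 overlapped control, and the 3 HFD+Pc libraries were nearly equal. The difference between HFD and control, -0.87 ± 0.26, did not pass (limma adjusted p = 0.0656). It passed in limma-voom (adjusted p = 0.0332) and in limma without HFD replicate 3 (adjusted p = 0.0092). Gdf15 had 1.55 ± 0.905, 2.62 ± 1.41 and 3.73 ± 2.41 FPKM (SD, n = 3) in control, HFD and HFD+Pc, a spread as wide as the differences, and did not pass.

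Of 6 tested amino acid transporters, 1 fell in HFD+Pc against control, Slc3a2, the heavy chain that carries Slc7a5 and Slc7a11 to the membrane. It had 10.04, 9.26 and 8.91 FPKM in control replicates 1, 2 and 4, 8.37, 9.72 and 7.94 in HFD replicates 1, 2 and 3, and 5.96, 6.81 and 6.78 in HFD+Pc replicates 1, 3 and 4. As for Atf4, the 3 HFD+Pc libraries lay below all others. Slc3a2 fell by 0.47 ± 0.09 against control (limma adjusted p = 0.0081), in all 9 fits without 1 library, and gave -0.36 ± 0.09 against HFD, which did not pass (limma adjusted p = 0.112). Slc7a5, the light chain for leucine, was 1.13, 0.713 and 0.761 FPKM in the 3 groups and Slc38a2, a glutamine transporter, 11.7, 11.03 and 10.7 FPKM, and neither passed. Slc7a11, the cystine transporter, had group means of 0.0039 FPKM in control and 0.0028 FPKM in HFD and was listed at 0 in HFD+Pc.

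Enzymes of serine, one-carbon and amino acid metabolism had 7 tested genes, and those that fell were both transaminases. Got1, cytosolic aspartate aminotransferase, was 237, 199 and 237 FPKM in control replicates 1, 2 and 4. HFD replicates 1, 2 and 3 had 56.1, 66.4 and 150 FPKM and HFD+Pc replicates 1, 3 and 4 had 84.8, 92.3 and 64.5 FPKM. All diet libraries were below control, with HFD replicate 3 nearest to it. Got1 fell by 1.43 ± 0.32 in HFD and by 1.48 ± 0.32 in HFD+Pc against control (limma adjusted p = 0.0279 and 0.0125). The first call was lost without any 1 control library or without HFD replicates 1 or 2 (highest limma adjusted p = 0.0904), and the second held in all 9 fits without 1 library.

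Gpt, alanine aminotransferase, fell by 0.49 ± 0.11 in HFD+Pc against control (limma adjusted p = 0.0116), also in all 9 fits. Shmt2, mitochondrial serine hydroxymethyltransferase, was 60.9, 65.1 and 73.2 FPKM in control, HFD and HFD+Pc, and Psph, the last enzyme of serine synthesis, 1.07, 1.18 and 1.12 FPKM, and neither passed. Mthfd2, the mitochondrial one-carbon partner of Shmt2, was under 1 FPKM in each group (0.272, 0.238 and 0.328). In this list 0 of the 7 tested genes rose in limma in any comparison. At an unadjusted p under 0.05, in either direction, there were 3 in HFD against control, 0 in HFD+Pc against HFD and 4 in HFD+Pc against control, and limma-voom called 1, 0 and 2. Over all 10988 tested genes the limma counts were 3052, 1718 and 4194, and limma-voom called 1290, 115 and 2678 of 10587.

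Aminoacyl-tRNA synthetases and the tRNA exporter Xpot, 14 tested genes, had 13 positive differences in HFD+Pc against HFD and 13 in HFD+Pc against control. The medians were 0.14 and 0.17. Over all tested genes 47.8% and 48.7% of differences were negative in these 2 comparisons. Of the 14 genes 0 passed against HFD in limma (2 at an unadjusted p under 0.05, 0 by limma-voom). Among all 10988 tested genes 1718 had an unadjusted limma p under 0.05 against HFD. Against control 1 rose, where 11.1% of all tested genes rose. Cars, cysteinyl-tRNA synthetase, rose by 0.62 ± 0.13 from 2.42 ± 0.495 to 4.25 ± 0.737 FPKM (limma adjusted p = 0.0093), in all 9 fits without 1 library. HFD+Pc replicate 1 was the lowest library of its group in 13 of the 14 genes (92.9%), against 41.3% of all tested genes. Without that library 4 of the 14 rose against control, and 1059 of all 10910 genes tested in that fit rose.

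In the list of mTORC1 sensing and paralogs of the ATF4 genes, 12 were tested. Chac2, the constitutive paralog of Chac1, had 12.9, 10.3 and 12.4 FPKM in control, 20.2, 18.6 and 17.6 in HFD and 20.4, 22.9 and 24.1 in HFD+Pc. The diet libraries all lay above control. Chac2 rose by 0.62 ± 0.10 in HFD and by 0.87 ± 0.10 in HFD+Pc against control (limma adjusted p = 0.0101 and 0.0015), in all 9 fits without 1 library for both.

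The paralogs of Eif4ebp1 gave differing values. Eif4ebp3 fell by 1.28 ± 0.28 in HFD+Pc against control, from 2.94 ± 1.54 to 0.525 ± 0.118 FPKM (limma adjusted p = 0.0136), in all 9 fits. Eif4ebp2 rose by 0.24 ± 0.08 from 50.9 ± 1.48 to 60.5 ± 2.88 FPKM (limma adjusted p = 0.0455), and this call was lost in each of the 9 fits without 1 library (limma adjusted p up to 0.147). Mtor rose by 0.27 ± 0.07 (limma adjusted p = 0.0286), and held in 4 of the 9 fits. It lost the call without any 1 control library or HFD+Pc replicates 1 or 3 (limma adjusted p up to 0.0892).

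The ATF6 and XBP1 branches of the unfolded protein response were set beside the ATF4 genes as a contrast. Of 19 tested targets 5 rose in HFD+Pc against control and 0 fell, with 18 positive differences and a median of 0.34. Among all tested genes 11.1% rose and 11.9% fell there, and 48.7% of differences were negative. In HFD+Pc against HFD 1 rose, as did 0.182% of all tested genes. In HFD against control 0 passed in limma (4 at an unadjusted p under 0.05, 1 by limma-voom). Among all 10988 tested genes 3052 had an unadjusted limma p under 0.05 in HFD against control. Hspa5 was 64.9 ± 5.10 FPKM in control, 87.9 ± 14.9 in HFD and 126 ± 26.5 in HFD+Pc liver (SD, n = 3). It rose by 0.93 ± 0.17 against control (limma adjusted p = 0.0062). Dnajb9, an HSP70 cochaperone and XBP1 target, rose by 1.01 ± 0.11 against control and by 0.77 ± 0.11 against HFD (limma adjusted p = 0.0014 and 0.0244).

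Xbp1 itself rose by 0.52 ± 0.10 against control (limma adjusted p = 0.0064). Hyou1 and Manf, a chaperone and a secreted factor named here after their values were seen, rose by 0.89 and 0.79 (limma adjusted p = 0.0234 and 0.0478). The calls of Hspa5, Dnajb9 and Xbp1 against control held in all 9 fits without 1 library. Hyou1 lost its call without any 1 control library or HFD+Pc replicates 3 or 4, and Manf without any 1 control library, HFD replicates 1 or 2 or HFD+Pc replicates 3 or 4 (highest limma adjusted p = 0.0837 and 0.146). The Dnajb9 call against HFD was lost without HFD replicates 1 or 2 or any 1 HFD+Pc library (limma adjusted p up to 0.130). Without control replicates 1 and 2 together, fewer of the 19 rose against control, in a fit with 1 control library that also called fewer genes over all tested genes. HFD+Pc replicate 1 was again the lowest of its group in 17 of the 19 genes (89.5%). Without it 8 of the 19 rose against control, and 1059 of all 10910 genes tested in that fit rose.

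**Figure D4:**
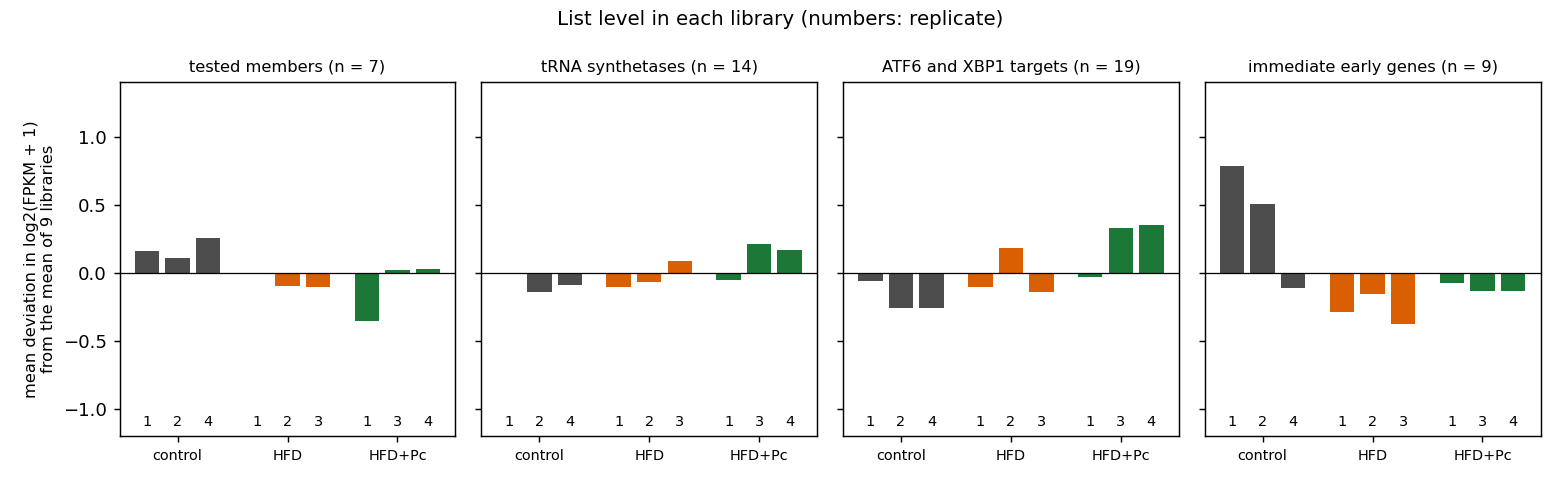
Mean deviation of the tested genes of 4 lists from their mean over the 9 libraries, in log2(FPKM + 1) (vertical axis), 1 bar per library from a baseline of 0, with the replicate number under each bar. HFD+Pc replicate 1 lay at -0.35 in the ATF4 list against 0.02 and 0.03 in replicates 3 and 4, and the immediate early genes were at 0.78 and 0.50 in control replicates 1 and 2.

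The mean level of the 7 tested ATF4 genes by library, relative to their mean over the 9, was 0.16, 0.11 and 0.25 for control replicates 1, 2 and 4. HFD replicates 1, 2 and 3 stood at -0.01, -0.10 and -0.11, and HFD+Pc replicates 1, 3 and 4 at -0.35, 0.02 and 0.03. The control libraries were thus the 3 highest, and HFD+Pc replicate 1 stood apart from the other HFD+Pc libraries, which lay above all 3 HFD libraries. For the 19 ATF6 and XBP1 targets the HFD+Pc replicates 3 and 4 were the highest of the 9 (0.33 and 0.35), and control replicates 2 and 4 the lowest (-0.26 and -0.26). The plot of list levels by library shows both orders.

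Genes whose pattern was most like that of the ATF4 genes were picked by the Pearson correlation of log2(FPKM + 1) over the 9 libraries, among tested genes outside the 10. These correlations describe points that share groups and libraries, and no test is attached to them. For the mean of the 7 tested genes the 5 highest were Ndufa9, a complex I subunit (r = 0.961), Urah, an enzyme of urate breakdown (0.960), B4galt3, a galactosyltransferase (0.959), Fmc1, an assembly factor of ATP synthase (0.947), and Mrpl11, a mitochondrial ribosomal protein (0.932). Urah was 76.8 ± 3.89 FPKM in control, 61.1 ± 4.12 in HFD and 59.7 ± 10.7 in HFD+Pc liver (SD, n = 3), and Ndufa9 was 41.0, 39.4 and 38.8 FPKM.

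For Atf4 alone the 3 highest were Mrps21, of the mitochondrial ribosome (r = 0.983), Fabp1, the liver fatty acid-binding protein (0.978), and Gm14584 (0.977). Fabp1 was 2385 ± 455 FPKM in control, 1808 ± 89.8 in HFD and 865 ± 165 in HFD+Pc liver, and Mrps21 29.1 ± 3.07, 25.9 ± 2.58 and 12.04 ± 2.30 FPKM (SD, n = 3). Like Atf4, both were lowest with the bacterium. For Atf5 they were H1f0, a linker histone (0.965), Dntt (0.955) and an unnamed gene model (0.946), and H1f0 had 66.2 ± 7.50, 44.5 ± 6.656 and 46.8 ± 0.250 FPKM. For Eif4ebp1 they were Rab1b, a GTPase of vesicle traffic (0.981), Gnmt, glycine N-methyltransferase (0.977), and Atad3a (0.967), and Gnmt had 1301 ± 77.3, 899 ± 35.9 and 905 ± 146 FPKM. For Sesn2 they were Prpsap1 (0.946), Gypc (0.918) and G6pc3 (0.918), and for Trib3 Snf8 (0.930), Coa3 (0.916) and Tmem242 (0.908). For Ddit3 they were Slc25a48 (0.953), Mup16 (0.932) and Abca2 (0.931), and for Chac1 Fn3k (0.956), Cdc42ep4 (0.903) and Nags (0.889). No member of the 8 pathway lists was among these genes.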

How the data were processed

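The submitters' processing notes name HISAT2 2.0.5 as aligner and GRCm39 as genome build. The counting tool, its annotation and its use of strand are not given in the sources used here. The deposited table holds the authors' FPKM values, per the file headers, for 54007 rows, of which 53700 have an Ensembl identifier and 52093 could be named from a gene name table. Reads were recovered from the steps of the FPKM values with exonic lengths of GENCODE M21, an annotation of an earlier build. FPKM is relative to each library's total, so a change in a few abundant genes shifts all others.

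Genes that reached 1 FPKM in 3 or more libraries entered limma 3.58.1 in R 4.3.3 on the log2(FPKM + 1) scale. One model held the 9 libraries with 1 mean per group, and eBayes used a trend and robust estimation. Tables were made with Python 3.11.15, numpy 2.4.6 and pandas 2.3.3. The fit was tested on simulated data. Near-identical copies were searched in the M21 transcripts with BLAST 2.17.0+ (at least 90% identity over at least 100 bases). Promoter sequences are from RefSeq, GRCm38.p6, and 9 of the 10 genes had an entry. One promoter site is not reported here.

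The genes, lists and tests were chosen with earlier results of these data known. Named are the 10 genes, a panel of stress response genes whatever their result, up to 3 passing genes per list, direction and comparison by lowest adjusted p, and the genes of most similar pattern. Sites of 4 genes outside the 10 were printed because they return in the results. Alternatives were a pseudocount of 0.1 FPKM, other filters, TPM and median-ratio scaling, 2-group fits, eBayes without trend, a replicate block, limma-voom on recovered reads, each library left out in turn and, added after the data were seen, control replicates 1 and 2 left out together.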

Additional observations from a re-analysis of the deposited data

How the results depend on the processing

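Calls are at a limma adjusted p under 0.05 throughout. With all genes above 0 or at 0.1 FPKM kept, so that more genes were tested, the calls over all genes were 209 and 725 for HFD against control, 3 and 27 for HFD+Pc against HFD, and 1383 without a filter for HFD+Pc against control (main counts 1095, 69 and 2538). The ATF4 genes called were then 0 and 1 of 2 in the first comparison and 1 of 3 without a filter in the third. Fits of only the 2 groups compared gave 680 and 22 genes in the first and second comparisons, with 1 ATF4 gene in the first. HFD+Pc against HFD had 30 genes with plain eBayes, 113 with TPM and 115 with limma-voom. Atf4 was the 1 ATF4 gene called there with TPM, median-ratio scaling and limma-voom. Deviations from the group means correlated at -0.12 to 0.05 in the 6 same-numbered pairs and at -0.11 to 0.14 in 21 other pairs. No shared effect of the replicate number was seen, which cannot exclude that libraries were paired. With the replicate block the counts were 232, 3 and 1058 genes and 1, 0 and 3 ATF4 genes. Its small differences that turned sign were -0.10 for Atf5 and -0.0437 for Eif4ebp1 in HFD+Pc against HFD, and -0.0237 for Chac1 in HFD+Pc against control. Leaving out 1 library gave 332 to 1126, 5 to 123 and 1396 to 2644 genes, and 0 to 2, 0 and 1 to 3 ATF4 genes. Counts without control replicates 1 and 2 were 79, 22 and 342 genes and 0 ATF4 genes in each, with fewer samples. There Atf4 (0.0662) and Chac1 (-0.17) turned sign in HFD against control, and Trib3 (0.0453) and Chac1 (-0.24) in HFD+Pc against control. None of the differences that turned sign had passed. TPM turned Eif4ebp1 to -0.0206 in HFD+Pc against HFD. Leaving out 1 library gave ranges across 0 for Chac1 in the 3 comparisons (-0.0440 to 0.33, -0.28 to 0.16 and -0.11 to 0.33), for Atf5, Ddit3 and Eif4ebp1 in HFD+Pc against HFD (-0.0625 to 0.23, -0.12 to 0.14 and -0.0567 to 0.17) and for Trib3 in HFD+Pc against control (-0.17 to 0.18). Where no cause is named, the cause was not tested. Depth limits Asns, Psat1 and Phgdh, with 2 to 88 reads per library.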

Other observations

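Summed markers of Kupffer cells, adipocytes and B cells were set beside the same groups. All 10 Kupffer cell and macrophage markers had negative differences in HFD+Pc against HFD, with a median of -0.43. Over all tested genes 47.8% of differences were negative there. Of the 10 markers 0 passed in limma (4 at an unadjusted p under 0.05, 0 by limma-voom). Among all 10988 tested genes 1718 had an unadjusted limma p under 0.05 in that comparison. The sums of these markers were 365 to 497 FPKM in control, 315 to 448 in HFD and 245 to 392 in HFD+Pc. It was HFD+Pc replicate 1 that lay nearest to the other groups. Adipocyte markers summed to 2.07 to 2.31 FPKM in control, 6.59 to 27.0 in HFD and 3.57 to 7.28 in HFD+Pc, and B and plasma cell markers to 20.2 to 27.5, 48.9 to 77.9 and 24.6 to 35.2. In both sums, as for Asns, the HFD libraries were the highest or overlapped only the HFD+Pc libraries. Only 2 of the 6 adipocyte markers were tested, with 1 positive and 1 negative difference in each comparison with control. Among B and plasma cell markers 4 of 7 were tested, with 4 positive differences in HFD against control. The part of these cells in the levels of the ATF4 genes was not tested.

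By length, the 975 tested genes with under 1000 exonic bases had a median difference of -0.04 in HFD+Pc against HFD and held 20 of the 49 genes that fell there. The 6850 genes of 3000 or more bases had a median of 0.02 and held 8. Whether fragment length or RNA quality differed between the groups was not tested.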
